A study of Rattus norvegicus with 2 samples.

Results

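Intermediate filament genes were read in A7r5 cells, an established rat line of embryonic vascular smooth muscle. The 8 genes are the keratin genes Krt8, Krt18 and Krt19, vimentin (Vim), desmin (Des), nestin (Nes), the A-type lamin gene Lmna and the B-type lamin gene Lmnb1. They were chosen by name, as every probe set whose only annotated gene is 1 of the 8, which gave 11 probe sets of the 15923 on the array and 8 of 10411 named genes. Krt8, Krt18, Krt19, Vim, Des and Nes have 1 probe set each, Lmna has 2 and Lmnb1 has 3. No probe set annotated to several genes named any of the 8.

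Both groups were A7r5 cells kept in 5.5 mM glucose and infected for 72 hours at a multiplicity of infection of 10, per the labels. The GLUT1 group received an adenovirus with the human cDNA of GLUT1, the transporter that carries glucose across the cell membrane, and the control group received the empty adenovirus, so both groups carry a virus and neither is uninfected. RNA of 3 days was pooled into 1 sample per group, each read on 1 array. The groups therefore have no replicates, no p-value was computed, and every difference below compares 2 arrays rather than 2 conditions. The cells are a single line, and the labels do not name the promoter that drives the cDNA.

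Intermediate filaments are rope-like polymers of coiled-coil proteins that give cells and nuclei their mechanical strength. Keratins assemble only as pairs of a type I and a type II chain, so that the type II chain of Krt8 needs a type I partner, usually that of Krt18 or Krt19. Vimentin and desmin are type III chains that can polymerise alone: vimentin is the filament protein of most mesenchymal cells, and desmin that of muscle, where smooth muscle cells carry them in differing mixtures. Nestin joins vimentin or desmin filaments in progenitor and regenerating cells, and the lamins form the meshwork under the inner nuclear membrane.

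Values are the deposited linear intensities in arbitrary units. Intensities at or below 175, the lower quartile of both arrays together, were held at that floor. A probe set counted as measured when its mean log2 intensity reached the median of all probe sets, 8.99, which is an intensity of 507. This is a line of brightness and not a detection call, and brightness also depends on the probes, so the levels of different genes are given without ranking their mRNA. The log2 ratio is GLUT1 over control throughout, and a gene counted as called from 2-fold in either direction, which is 1 on the log2 scale.

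Of the 8 filament genes, 6 were measured (Krt8, Vim, Des, Nes, Lmna and Lmnb1) and 2 were not (Krt18 and Krt19), beside 58.7% of all genes on the array. None of the 6 reached 2-fold, and 0.0164% of the 6114 measured genes did. The array pair shows the same filament genes above and below the line of brightness with either virus. Of the 11 probe sets, 8 were measured, and the 3 others are those of Krt18 and Krt19 and the dimmest for Lmnb1.

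**Figure D1:**
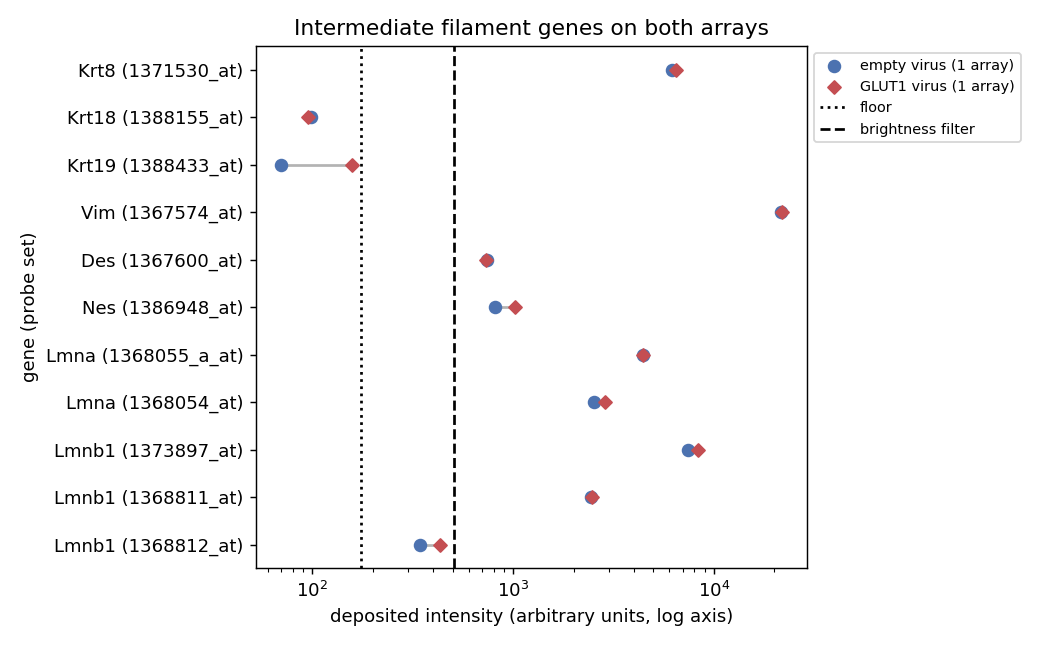
Deposited intensity (log axis) of the 11 probe sets of the 8 genes on the control array (circles) and the GLUT1 array (diamonds), with the floor at 175 (dotted) and the line of brightness at 507 (dashed). The Krt18 and Krt19 probe sets lie below the floor on both arrays, and Vim lies at 21572 and 21716.

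The keratin genes split. Krt8, which encodes the type II keratin of simple epithelia, was bright, at 6193 with the empty virus and 6500 with the GLUT1 virus, brighter than 95.4% and 95.7% of all probe sets. Its log2 ratio was 0.07. Krt18, the usual type I partner, was read at 99 and 95, and Krt19, another simple type I keratin, at 70 and 158. Both lay below the floor on both arrays, where values have no order, so no ratio is given for either. At the floor on both arrays stood 16.3% of all named genes. The Krt19 readings differ by 88 units. Of the 2875 probe sets that read between 0 and the floor on both arrays, 107, or 3.72%, differed by at least as much, and the median difference was 27 units. Each of the 3 genes was read by a single probe set, so a probe set that fails to bind its transcript and a transcript at a low level cannot be told apart here.

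Most of the other keratin genes named on the array were dim, in both types. Of 40 further keratin genes listed, 12 were named by a probe set, of which 2 were measured. The 28 others have no reading here. Krt7, the other type II keratin of simple epithelia, read 11090 and 11604, brighter than 98.1% of probe sets on the control array, with a log2 ratio of 0.07. Krt14, a type I keratin of basal epidermis, read 660 and 646, a log2 ratio of -0.03. Over all 15 keratin genes on the array, 2 of 6 of type II and 1 of 9 of type I were measured, beside 58.7% of all genes on the array. The 4 unmeasured type II genes read between 7 and 543 on the control array and between 24 and 465 on the GLUT1 array. The 8 unmeasured type I genes read between 70 and 417 on the control array and between 95 and 427 on the GLUT1 array. Krt5, the type II partner of Krt14, read 543 on the control array, above the line of 507, and 465 on the GLUT1 array, below it. Its mean log2 intensity, 8.97, fell just short of the line. Krt7 and Krt8, both of type II, were the bright keratin readings. The 4 other type II genes did not exceed 543 on either array, and the 9 type I genes did not exceed 660.

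**Figure D2:**
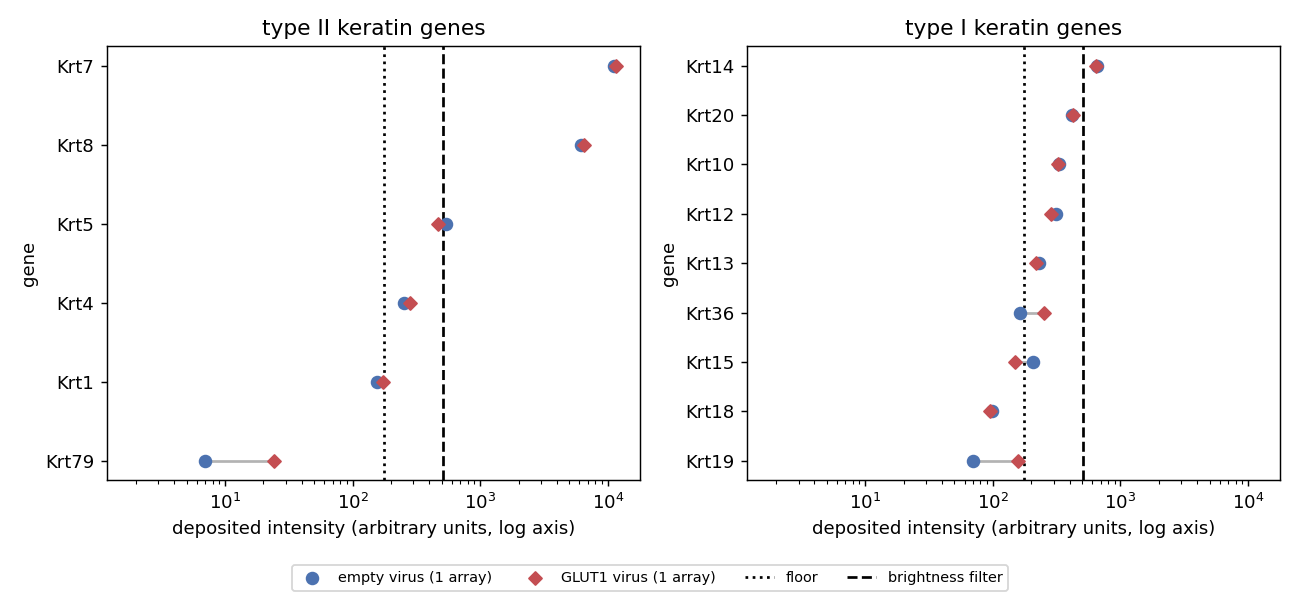
Deposited intensity (log axis) of the 6 type II (left) and 9 type I (right) keratin genes named on the array, 1 probe set per gene, on the control (circles) and GLUT1 (diamonds) arrays, with the floor at 175 and the line of brightness at 507. Krt7 and Krt8 stand far to the right of the line on both arrays, and Krt14 is the single type I gene past it.

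Krt8 and Krt18 lie side by side on rat chromosome 7, on opposite strands, with their annotated starts 25.8 kb apart in GRCr8. The 250 bases before each start are shown, from RefSeq's GRCr8 annotation, at chr7:135010340-135010589 on the minus strand for Krt8 and chr7:135035918-135036167 on the plus strand for Krt18. Whether these bases bear on the Krt8 and Krt18 readings was not tested. Capitals mark matches on either strand to the TATA box (TATAAA), the GC box (GGGCGG), the CCAAT box (CCAAT) and the AP-1 site (TGANTCA), and to the CArG box of smooth muscle genes.
Krt8: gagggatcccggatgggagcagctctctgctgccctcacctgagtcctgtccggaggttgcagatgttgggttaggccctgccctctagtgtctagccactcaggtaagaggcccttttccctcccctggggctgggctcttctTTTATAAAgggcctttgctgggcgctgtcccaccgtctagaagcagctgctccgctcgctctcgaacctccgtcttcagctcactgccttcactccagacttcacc
Krt18: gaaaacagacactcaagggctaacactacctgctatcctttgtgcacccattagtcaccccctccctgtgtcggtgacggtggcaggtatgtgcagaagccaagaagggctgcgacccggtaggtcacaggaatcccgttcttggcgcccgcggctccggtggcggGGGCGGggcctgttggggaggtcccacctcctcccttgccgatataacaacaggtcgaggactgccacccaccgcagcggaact
The Krt8 window holds a TATA box from base 104 to base 99 before the start, overlapped by a match on the other strand from base 106 to base 101, and no GC box. In the Krt18 window a GC box lies from base 84 to base 79 and no TATAAA was found. Among 33469 such windows of the rat genome, 12.9% hold TATAAA and 30.5% a GC box, so neither match is rare. A match is a string of letters, not a shown binding site.

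Vimentin was read by a very bright probe set. It gave 21572 with the empty virus and 21716 with the GLUT1 virus, brighter than 99.4% of probe sets on each. The log2 ratio was 0.01, well inside the local spread of 0.073, which is the scaled median absolute deviation of the ratio among the 500 measured probe sets closest in brightness. Desmin, the muscle filament, read 743 and 729, a log2 ratio of -0.03 beside a local spread of 0.16. Its probe set was brighter than 58.6% of probe sets on the control array, so it lay not far above the line of brightness. Both type III genes were therefore measured, and each differed by less than the local spread between the arrays.

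The 250 bases before the starts of this type III pair are shown with the same marks, at chr17:81577011-81577260 for Vim and chr9:84299376-84299625 for Des, both on the plus strand of GRCr8.
Vim: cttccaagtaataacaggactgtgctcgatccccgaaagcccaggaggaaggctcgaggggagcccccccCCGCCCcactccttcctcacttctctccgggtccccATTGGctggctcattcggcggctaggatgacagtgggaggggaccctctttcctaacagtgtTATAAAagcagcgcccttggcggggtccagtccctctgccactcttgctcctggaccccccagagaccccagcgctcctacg
Des: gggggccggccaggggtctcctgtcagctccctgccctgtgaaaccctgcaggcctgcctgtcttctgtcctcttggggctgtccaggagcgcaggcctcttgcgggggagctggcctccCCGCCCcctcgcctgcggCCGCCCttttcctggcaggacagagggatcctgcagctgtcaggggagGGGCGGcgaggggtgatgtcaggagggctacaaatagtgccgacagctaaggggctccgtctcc
The Vim window holds a TATA box from base 82 to base 77, a CCAAT box from base 144 to base 140 and a GC box from base 180 to base 175. The Des window holds 3 GC boxes and no TATAAA. Of the 8 genes, 7 had a window in the table. A GC box was found in 5 of these (Krt18, Vim, Des, Nes and Lmna), and a CCAAT box in Vim and Lmnb1. No window of the 7 holds the CArG box or the AP-1 site, which 1.5% and 6.34% of all windows hold, and CCAAT is in 34.0%.

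Nestin had the largest ratio among the measured filament genes. Its probe set read 811 with the empty virus and 1025 with the GLUT1 virus, a log2 ratio of 0.34, or 1.27-fold. The local spread there was 0.17, and of the 500 probe sets nearest in brightness 12, its own included, had a ratio as high or higher. Counted in either direction, 31 of the 500 lay at least as far from 0. Among all measured genes 88 had a higher ratio. Nes has no second probe set, so the reading has no check within the arrays.

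The lamin genes were read by several probe sets, which differed in their ratios. Lmna encodes lamins A and C by alternative splicing, and the annotation does not say which product each probe set reads. The brighter Lmna probe set, 1368055_a_at, read 4455 and 4452, a log2 ratio of 0.00. The other, 1368054_at, read 2533 and 2854, a log2 ratio of 0.17 beside a local spread of 0.11. The gap of 0.17 between them can be set beside the 702 genes with at least 2 measured probe sets, where 31.1% had a gap at least as wide and the median gap was 0.12.

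Lmnb1 encodes the farnesylated lamin B1 of the nuclear rim. Its brightest probe set, 1373897_at, read 7390 and 8327, a log2 ratio of 0.17, or 1.13-fold, where the local spread was 0.078. Of the 500 probe sets nearest in brightness, 11 had a ratio as high or higher, its own included. Counted in either direction, 27 of the 500 lay at least as far from 0. The next, 1368811_at, read 2436 and 2480, a log2 ratio of 0.03. The dimmest, 1368812_at, lay between the floor and the line of brightness at 344 and 433, a log2 ratio of 0.33. All 3 probe sets read higher on the GLUT1 array, by amounts that were not alike, and all 3 share the same pair of RNA pools.

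**Figure D3:**
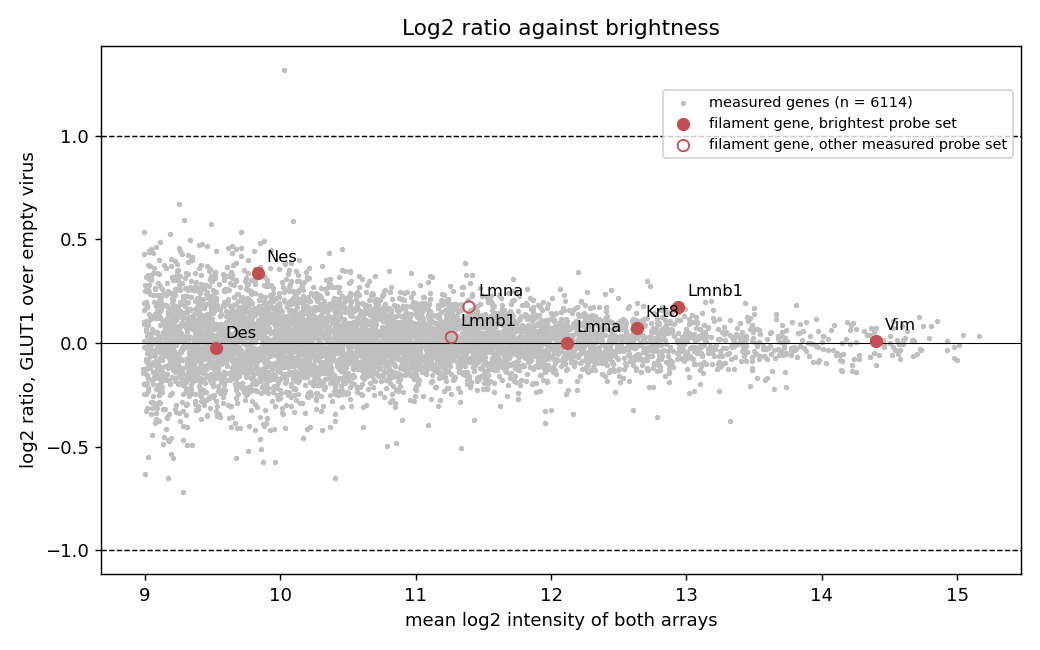
Log2 ratio, GLUT1 over control, against mean log2 intensity for the 6114 measured genes (grey) and the 8 measured probe sets of the filament genes (filled: the gene's brightest probe set; open: another). Dashed lines mark 2-fold; the filament genes lie between -0.03 and 0.34, inside the grey cloud.

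Over the 6 measured filament genes the median log2 ratio was 0.04, beside 0.01 over all measured genes, whose 5th and 95th percentiles were -0.21 and 0.23. The ratio was above 0 for 5 of the 6 and below 0 for Des, while 52.2% of measured genes had a ratio above 0. The Lmna ratio among these 5 is so close to 0 that it falls below 0 in the deposited values without scaling. At the looser size of 1.5-fold, 0 of the 6 were called, beside 0.131% of measured genes. Of the 6, only Nes lay outside the 5th to 95th percentiles. The gaps between paired probe sets of the 702 genes gave an SD of 0.13 per probe set ratio, and the SD over all measured genes was 0.14. The paired probe sets read the same 2 arrays, so the 0.13 leaves out variation between cultures, infections, RNA pools and arrays. With 1 array per group that variation cannot be estimated.

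The remaining cytoplasmic filament genes did not exceed 804 on either array, and the brightest of them read near Des, at 743 and 729. Of 10 listed, 8 were named on the array and 3 of these measured, beside 58.7% of all genes. None of the 3 reached 2-fold, and all 3 log2 ratios were below 0, with a median of -0.15. Nefh, the heavy neurofilament chain, read 804 and 726, a log2 ratio of -0.15. Bfsp1, filensin of the lens, read 742 and 663, a log2 ratio of -0.16. Synm, which encodes the muscle filament protein synemin, read 628 and 615, a log2 ratio of -0.03. Its other probe set read 84 and 107, at the floor on both arrays, so Synm counted as measured by its brighter probe set alone. The differences of Nefh, Bfsp1 and Synm were each smaller than the local spread.

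Genes for proteins that tie filaments to other structures came next. Of 16 listed linker and desmosome plaque genes, 9 were named and 7 of these measured, beside 58.7% of all genes. The counts of measured genes in the lists below stand beside the same share. Of the 7 log2 ratios, 5 were above 0 and 2 below, none at 2-fold, with a median log2 ratio of 0.11. Tchp, which encodes the keratin-binding protein trichoplein, read 697 and 870, a log2 ratio of 0.32 beside a local spread of 0.16. Plec, which encodes plectin, the linker of filaments to actin and adhesions, read 3645 and 4118, a log2 ratio of 0.18. Jup, plakoglobin of the junctional plaque, read 3060 and 3399, a log2 ratio of 0.15. The spectraplakin gene Macf1 read 3690 and 3769, a log2 ratio of 0.03. Desmoplakin, Dsp, which anchors keratin or desmin filaments at desmosomes, was under the line of brightness at 434 and 426, as was Evpl at 159 and 196. Pkp2 and Pkp4 of the same list were measured, at 2267 and 2248 and at 1573 and 1697, with log2 ratios of -0.01 and 0.11. Dsp, Evpl, Pkp2 and Pkp4 were chosen after their values were seen. Krtcap2 in this list is known as a subunit of oligosaccharyltransferase rather than a filament linker, and its log2 ratio was -0.03. It too was chosen after its values were seen.

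Among chaperones and modifying enzymes of filaments, 13 of 16 listed genes were named and 11 measured, 5 above 0 and 6 below, none at 2-fold, with a median log2 ratio of -0.04. Cdk1, the mitotic kinase that phosphorylates lamins and vimentin, read 6619 and 7060, a log2 ratio of 0.09. Cryab, the small heat shock protein that binds desmin, read 5479 and 5580, a log2 ratio of 0.03. Rock2, a kinase of vimentin, had a log2 ratio of -0.21 on its brightest probe set, at 2205 and 1909. Its other probe sets gave 0.20 and -0.05, so the Rock2 probe sets did not share a sign. Trim32, a ubiquitin ligase that targets desmin, had a log2 ratio of -0.15 and the kinase gene Rock1 0.11.

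The nuclear envelope partners of the lamins had log2 ratios from -0.21 to 0.11 on each gene's brightest probe set. Tor1aip1, named after its values were seen, gave -0.08 on its brightest probe set and 0.21 on another measured probe set. Of 17 listed, 15 were named and 13 measured, 5 above 0 and 8 below, none at 2-fold, with a median log2 ratio of -0.01. Lbr, the receptor that holds B-type lamins at the inner membrane, read 1367 and 1181, a log2 ratio of -0.21 beside a local spread of 0.14. Tmem43, an inner membrane protein also called LUMA, read 9845 and 10617, a log2 ratio of 0.11, and Banf1, the chromatin-bridging partner of emerin, read 8054 and 8574, a log2 ratio of 0.09. Lmnb2, the second B-type lamin gene, read 3722 and 3825, a log2 ratio of 0.04, and was chosen after its values were seen.

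Of the 6 genes for farnesylation, trimming and recognition of prelamins, 5 were measured, 4 above 0 and 1 below, none at 2-fold, with a median log2 ratio of 0.13. Fnta, the shared alpha subunit of farnesyltransferase, read 2741 and 2539, a log2 ratio of -0.11. Narf, which binds prelamin A, read 1459 and 1620, a log2 ratio of 0.15. Rce1, the protease of farnesylated chains, read 1324 and 1448, and Icmt, which methylates them, read 510 and 556, both with a log2 ratio of 0.13. Zmpste24, which cuts prelamin A to its mature form, read 1020 and 1107, a log2 ratio of 0.12, and was named after its values were seen. The ratios of all 5 lay between -1.03 and 1.27 times the local spread.

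**Figure D4:**
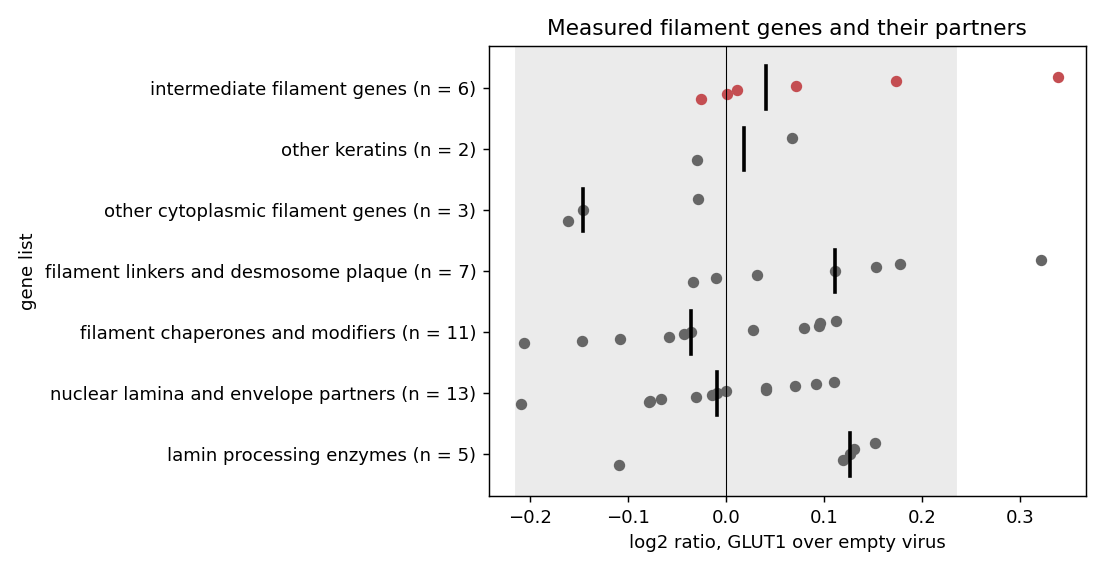
Log2 ratio, GLUT1 over control, of the measured genes of the 7 lists, 1 point per gene at its brightest probe set; black bars are medians and the grey band spans the 5th to 95th percentiles of all measured genes, -0.21 to 0.23. Nes at 0.34 and Tchp at 0.32 lie above the band, and no point lies below it.

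Markers of cell identity were read on the same arrays. Each count of measured markers stands beside 58.7% of all genes on the array and does not by itself settle cell identity. Of 11 smooth muscle genes named on the array, 8 were measured, led by Acta2 at 16303 and 16687, Tpm2 at 10236 and 10440 and Cald1 at 10021 and 9165, while Myh11, the defining myosin of mature smooth muscle, lay under the line of brightness at 227 and 228. Because keratins are chiefly epithelial, the epithelial list bears on the Krt7 and Krt8 readings. Of its 9 named genes, 2 were measured, and these are the keratin genes Krt7 and Krt14. The other 7 were not measured, though Krt5, at 543 and 465, was above the line of brightness on the control array. Of these, 3 adhesion genes were at the floor on both arrays, with Cdh1, E-cadherin, at 23 and -16, Epcam at 54 and 155 and Cldn4 at 123 and 118. The tight junction genes Cldn3 at 161 and 248, Cldn7 at 190 and 279 and Ocln at 204 and 185 lay around or just above the floor. The summed intensity of the list, 13048 for the control and 13684 for GLUT1, is mostly that of Krt7. Mesothelial cells carry keratins together with vimentin, and of the 3 mesothelial genes named, Msln, mesothelin, read 1978 and 2238 and Wt1 807 and 782, with Calb2 under the line at 499 and 480. Their summed intensity was 3284 and 3500, and its part in the keratin readings was not tested. Krt5, Myh11, Cdh1, Epcam, Cldn3, Cldn4, Cldn7, Ocln and Calb2 were named after their values were seen.

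Nestin and desmin also mark neural and skeletal muscle cells. The counts of measured genes again stand beside 58.7% of all genes, a share that the fibroblast count is near. Of 7 neural and glial genes named, 1 was measured, the microtubule gene Map2 at 1749 and 1650, and Gfap, the astrocyte filament, was under the line at 453 and 328 and was named after its values were seen. Sums over this list were 2982 and 2795. None of 11 skeletal or cardiac muscle genes was measured, with sums of 1906 and 1975. Of 7 fibroblast genes 4 were measured, led by the collagen genes Col1a1 at 33287 and 34153 and Col1a2 at 19470 and 19496, with Col3a1 at 1275 and 1160, while Lum at 64 and 120, Pdgfra at 173 and 169 and Dcn at 81 and 45 were at the floor on both arrays and were named after their values were seen. Of 6 endothelial genes 1 was measured, Esam at 584 and 479, and of 7 leukocyte genes 3, with Cd14 at 1235 and 1398, C1qb at 1352 and 1014 and Aif1 at 655 and 719. The leukocyte genes Cd3e at 457 and 348, Csf1r at 386 and 402 and Cd68 at 323 and 249 lay under the line. Ptprc, at 62 and 77, was at the floor on both arrays. Cd3e, Csf1r, Cd68 and Ptprc were named after their values were seen. In pooled RNA, fewer cells of a type and less RNA per cell cannot be told apart.

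The rat Slc2a1 probe set, which reads the gene of GLUT1, gave 2902 and 3121, a log2 ratio of 0.11. The virus carried the human cDNA, and the sources used here do not say whether these rat probes bind it, so this reading does not check the labels. Both arrays had a median of 508, and their log2 intensities had a Pearson correlation of 0.993 across the 7962 measured probe sets, which are not independent replicates.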

How the data were processed

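The authors deposited 1 linear intensity per probe set and array, in whole numbers. At or below 0 were 3.01% of control and 3.04% of GLUT1 values. The sources used here do not give the array software, background correction or normalization, but both arrays share a median of 508, so a change in total mRNA cannot be seen. Per the labels, 5 µg of pooled total RNA was labelled with biotin.

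The GLUT1 array was scaled to a median log2 ratio of 0 over the brighter probe sets (-0.0013 before scaling), values were floored at the 25th percentile, and log2 was taken (Python 3.11.15, numpy 2.4.6, pandas 2.3.3). Gene names came from the platform annotation and were updated by gene ID through a GRCr8 gene table, which held 12748 of 12783 single-gene probe sets. The 312 with several genes and the 2771 with none were left out, and the brightest probe set stood for a gene. The steps were tested on simulated data. Precision is limited by the number of arrays.

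The 8 genes, the gene lists and the rules were chosen with earlier results of these data known. Named were the 8 genes, the 3 measured genes of each other filament list with the largest absolute ratio, its 2 brightest, up to 3 measured genes of each marker list, and Slc2a1. With 2 arrays, genes of like pattern were not sought. Alternatives varied the filter, floor, scaling, probe set rule and fold, and 1, a ratio with no floor, was added after seeing the data.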

Additional observations from a re-analysis of the deposited data

How the results depend on the processing

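No paired analysis was possible because there is 1 array per group, and leaving out an array leaves no comparison. The count of filament genes at 2-fold was 0 under the 7 alternatives of filter, floor, scaling and probe set rule for which it was computed, and 0 at 1.5-fold; it was not computed with no floor. The count measured was 6, with 8 under no filter and 4 with the filter at the 75th percentile, which leaves out Des and Nes. The median log2 ratio lay between 0.01 (no filter) and 0.08 (mean over a gene's probe sets). With no filter, Krt18 and Krt19 entered at ratios of 0 set by the floor. These lowered the median, and neither gene could have reached 2-fold in that setting. Of 55 ratios recomputed for single probe sets, 53 moved by less than 0.13, the SD from paired probe sets on the same arrays. This count was largely fixed in advance and is no sign of stability. The changed or absent floors could not move probe sets that lay above them. Krt18 and Krt19 stayed at the floor under both scaling alternatives. The other 2 were both of Krt19, at 1.18 with a floor at the 10th percentile and with no floor, a setting added after seeing the data; these rest on intensities of 70 and 158, where no order is read. The deposited values were already equalised, so the scaling alternatives say little about stability.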
